A study of Mus musculus with 36 samples.

Results

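Tumours grown from the mouse bladder cancer line BBN963 were compared with tumours grown from the mouse bladder cancer line MB49. The comparison used 6 of the 36 RNA libraries of the series, picked by their titles: 2 BBN963 line-derived tumours and 4 MB49 line-derived tumours. Per the labels all 6 were bladder tumours of control genotype that received no treatment. The labels abbreviate the BBN963 samples as BBN, a name that primary tumours of the series share where the labels give N-butyl-N-(4-hydroxybutyl)nitrosamine, a bladder carcinogen, as treatment. MB49 is a long-used transplantable line from carcinogen-exposed mouse bladder epithelium. Each group is repeated tumours of 1 line, so the line is the unit that differs and the tumours measure only the spread within it. The host mice, their strain, sex and age, and the site of growth are not given in the sources used here. The study also profiled a culture of each line, which serves below as a single library without replicates, and 4 UPPL1541 line-derived tumours. The UPPL1541 tumours entered the choice of genes tested and the spread of the fit, but not the difference itself.

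Bladder epithelium, the urothelium, rests on basal cells that carry the basal keratins Krt5 and Krt14 and the transcription factor p63, and is covered by luminal cells that carry uroplakins, Krt20, Krt8 and Krt18. Cells of this lineage are held together by E-cadherin, tight junctions and desmosomes, and can switch to a squamous programme with a cornified envelope. Carcinoma cells that lose epithelial adhesion take up vimentin and the repressors of the Zeb and Snail families, which bind E-box sequences in the promoters of adhesion genes.

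Values are the deposited gene estimates, scaled by the authors so that the 75th percentile of each library's values above 0 is 1000 units, and differences are in log2(value + 1), BBN963 minus MB49. Of 14604 genes tested, 6121 passed an adjusted p of 0.05 in limma (41.9%). They split into 2309 higher in BBN963 tumours (15.8%) and 3812 lower (26.1%), with 698 and 742 of them by 4 log2 units or more. The median difference over all genes was -0.24. Median-of-ratios scaling moved it to -0.06 and the calls to 2929 higher and 3222 lower. Quantile normalization gave 2641 higher and 3082 lower, so differences near this shift depend on the scaling. Without overlap between the groups, 21.3% of tested genes lay above and 32.2% below in BBN963 tumours. Of genes listed at 0 in every tumour of 1 line and at 100 units or more in every tumour of the other, 131 were held by BBN963 tumours and 72 by MB49 tumours.

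Reads in genes came to 10.6 and 11.8 M in the BBN963 tumours and to 11.5 to 12.8 M in the MB49 tumours. Genes above 0 numbered 12489 and 13358 in BBN963 tumours, against 13167 to 14241 in MB49 tumours. The log2 profiles correlated at 0.887 between the BBN963 tumours, at 0.927 to 0.966 among the MB49 tumours and at 0.675 to 0.711 across the lines, over all genes, which are not independent replicates. The most frequent low value was 19 and 9 reads in BBN963 tumours 1 and 2, and 11, 3, 3 and 3 reads in MB49 tumours 1 to 4, against 1 read in both cultures. A value of 0 in a tumour may therefore mean fewer than that many reads, and log2 differences are given only for genes that reached 5 units in a tumour of each line. The 698 and 742 genes counted above were not held to this rule. List medians are also given with genes at 0 in 1 line set to 3 reads. That lies below the 19, 9 and 11 reads given here, so those medians may still depend on the zeros.

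The first set of results concerns genes of stratified epithelium, and the plot of epithelial and mesenchymal genes by tumour shows it gene by gene. Of the basal urothelial list, 14 of 16 members rose, 1 fell and 1 did not pass, with a median difference of 10.34 against -0.24 over all genes. Krt5, the basal keratin gene, had 137662 and 130266 units in the BBN963 tumours, against 5.20, 1.12, 7.46 and 11.7 in the MB49 tumours. Krt5 rose by 14.42 log2 units (SE 0.51, adjusted p = 4.9e-09). Its partner Krt14 had 250371 and 229053 units in the BBN963 tumours, against 604, 131, 505 and 408 in the MB49 tumours. Krt14 rose by 9.38 log2 units (SE 0.48, adjusted p = 8.0e-08). Both BBN963 tumours lay far above all 4 MB49 tumours in both genes, and the culture values, 106940.4 and 0.96 for Krt5 and 75713 and 1.93 for Krt14 in BBN963 and MB49 cells, had the same order. Krt17 had 16596 and 16708 units in the BBN963 tumours, against 1.04, 0, 0 and 0 in the MB49 tumours (adjusted p = 4.4e-10). The stress keratins Krt6a and Krt6b were at 111780.5 and 121809 and at 55916 and 40324 units in the BBN963 tumours, against at most 59.7 and 1.07 units in MB49 tumours. Their sequences are close, so reads may be split between them. Gpx2, an epithelial glutathione peroxidase gene, was at 7937 and 10263 units in BBN963 tumours and at 1.04, 0, 0 and 0 in MB49 tumours (adjusted p = 1.1e-09). Egfr, the epidermal growth factor receptor gene, was the member that fell, at 906 and 879.9 units in BBN963 tumours and 1195, 1924, 1904 and 2406 in MB49 tumours (log2 difference -1.01, SE 0.24, adjusted p = 0.0052), and without MB49 tumour 4 the list had 2 lower.

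**Figure D1:**
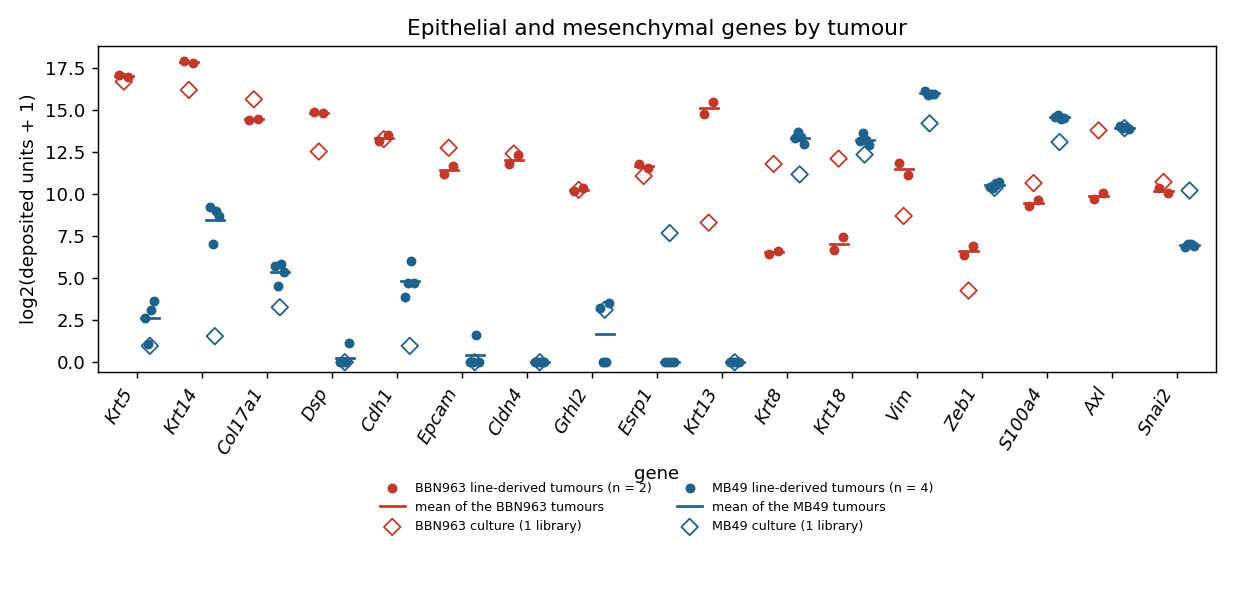
Levels of 17 epithelial and mesenchymal genes as log2(deposited units + 1), with each tumour as a point, group means as short lines and the single cultures as open diamonds, BBN963 left of MB49. Krt5 to Krt13 lie higher in both BBN963 tumours than in any MB49 tumour, and Krt8, Krt18, Vim, Zeb1, S100a4 and Axl lie lower.

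Genes of the hemidesmosome, which anchors basal cells to the basement membrane, split: 5 of 11 members rose, 0 fell and 6 did not pass, median 0.89. Col17a1, the hemidesmosomal collagen gene, had 22028 and 23145 units in the BBN963 tumours, against 50.99, 22.4, 55.4 and 40.8 in the MB49 tumours. Col17a1 rose by 9.10 log2 units (SE 0.32, adjusted p = 4.9e-09). Lamb3, a chain of laminin-332 in the basement membrane, rose by 6.43 log2 units (adjusted p = 2.0e-06), and Itga6, the integrin partner chain, by 2.28 (adjusted p = 0.0022). Itgb4, the integrin chain of the hemidesmosome, had 4786 and 5643 units in BBN963 tumours and 2629.6, 3245, 3792 and 3050.1 in MB49 tumours, groups that did not overlap, but did not pass (log2 difference 0.72, SE 0.30, adjusted p = 0.073).

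The simple keratins did not move as 1 group: 5 of 7 members rose, 2 fell and 0 did not pass. Krt8, a keratin gene of simple and luminal epithelium, had 85.03 and 99.3 units in the BBN963 tumours, against 10543, 13395, 10777 and 8023 in the MB49 tumours. Krt8 fell by 6.82 log2 units (SE 0.36, adjusted p = 1.1e-07). Its partner Krt18 had 103 and 172 units in the BBN963 tumours, against 9246, 12684, 9699 and 7684 in the MB49 tumours. Krt18 fell by 6.17 log2 units (SE 0.23, adjusted p = 6.6e-09). Both genes were thus lower in the tumours that held Krt5, while the cultures had 3580.3 and 2325 units of Krt8 and 4462 and 5265 of Krt18 in BBN963 and MB49 cells. Krt7 had 4639.6 and 13206 units in the BBN963 tumours, against 10.4, 0, 8.53 and 4.66 in the MB49 tumours. Krt7 rose by 10.62 log2 units (SE 0.80, adjusted p = 1.7e-06). Krt80 rose by 3.43 (adjusted p = 2.8e-07). Krt20, the keratin gene of umbrella cells, averaged 305 ± 78.1 units in BBN963 tumours (SD, n = 2) and did not exceed 3.37 in MB49 tumours (adjusted p = 2.8e-06). Krt23 was at 223 and 312 units in BBN963 tumours and listed at 0 in MB49 tumours (adjusted p = 4.4e-07). Neither was above 1 unit in the cultures.

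All 23 tested members of the squamous and cornified envelope list rose, with a median of 10.08, or 8.76 with genes listed at 0 in 1 line set to 3 reads, and their summed level was 234000.0 and 260000.0 units in BBN963 tumours, against 546, 791, 668 and 789 in MB49 tumours. One further gene of the list fixed was not found in the table. Krt13, a suprabasal keratin gene, had 28406 and 46346 units in the BBN963 tumours and was listed at 0 in all 4 MB49 tumours (adjusted p = 6.1e-11). Krt1, a keratin gene of cornifying epithelium, had 1423 and 773 units in the BBN963 tumours and was listed at 0 in all 4 MB49 tumours (adjusted p = 1.6e-09). Krtdap, a keratinocyte differentiation gene, had 11090.1 and 10172 units in the BBN963 tumours and was listed at 0 in all 4 MB49 tumours (adjusted p = 4.4e-10). Lgals7, a galectin gene, had 11836 and 11868 units in the BBN963 tumours, against 0, 1.12, 0 and 0 in the MB49 tumours (adjusted p = 1.1e-09). Krt10, the partner of Krt1, was at 852 and 1228 units in BBN963 tumours and 10.4, 13.5, 19.2 and 15.2 in MB49 tumours (log2 difference 6.07, SE 0.30, adjusted p = 6.6e-08). The summed level was 23450.0 units in the BBN963 culture, below either tumour, and 129 in the MB49 culture, and Krt1 was listed at 0 in both cultures. Psca, a surface antigen gene, and Calm4, a calmodulin-like gene, belonged to the genes listed at 0 in 1 line's tumours, at 6534 and 10638 and at 6761 and 5542 units in BBN963 tumours and listed at 0 in all 4 MB49 tumours (adjusted p = 3.9e-09 and 2.7e-09).

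Desmosome genes followed: 10 of 11 members rose, 1 fell and 0 did not pass, median 10.40. Dsp, desmoplakin, had 30768 and 28915 units in the BBN963 tumours, against 0, 0, 0 and 1.17 in the MB49 tumours (adjusted p = 4.4e-10). Dsc3, a desmosomal cadherin gene, had 11739.8 and 8941 units in the BBN963 tumours and was listed at 0 in all 4 MB49 tumours (adjusted p = 6.1e-11). Jup, plakoglobin, which adherens junctions also use, had 17059.6 and 18847 units in the BBN963 tumours, against 918, 914, 888 and 671 in the MB49 tumours. Jup rose by 4.41 log2 units (SE 0.17, adjusted p = 9.0e-09). Perp and Dsg3 were at 50157 and 47740.2 and at 13066 and 11408 units in BBN963 tumours, and at most 38.5 and 2.33 units in MB49 tumours (adjusted p = 4.0e-08 and 5.2e-09). Among cadherin and tight junction genes, 14 of 20 members rose, 1 fell and 5 did not pass, median 3.45. Cdh1, E-cadherin, had 9048 and 11806 units in the BBN963 tumours, against 13.5, 25.8, 62.9 and 25.6 in the MB49 tumours. Cdh1 rose by 8.50 log2 units (SE 0.42, adjusted p = 7.0e-08). Cldn4, a claudin gene, had 3532 and 5154 units in the BBN963 tumours and was listed at 0 in all 4 MB49 tumours (adjusted p = 5.8e-10). Epcam, an epithelial adhesion molecule gene, had 2360.4 and 3288 units in the BBN963 tumours, against 0, 0, 2.13 and 0 in the MB49 tumours (adjusted p = 2.6e-08). The groups did not overlap in these 3 genes, and in the cultures they were at 9955 and 0.96 units (Cdh1), 5490.3 and 0 (Cldn4) and 6959.9 and 0 (Epcam) in BBN963 and MB49 cells. Crb3, a polarity gene, was at 322 and 344 units in BBN963 tumours and at most 1.07 in MB49 tumours (adjusted p = 2.8e-06). Cldn8, a further claudin gene, was at 489.8 and 714 units in BBN963 tumours and listed at 0 in MB49 tumours (adjusted p = 3.4e-08). The single call in the opposite direction in this list went to 0 without BBN963 tumour 1 and to 2 without BBN963 tumour 2 or MB49 tumour 1.

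Zeb and Snail repressors are known to bind the E-box CACCTG, and of these Zeb1 was lower and Snai2 higher in BBN963 tumours. Whether either acts on the genes above was not tested. Promoter sequences of 3 of the genes above are shown for this motif. They are RefSeq entries of build GRCm38.p6, 250 bases before to 50 after the annotated start, 5′ to 3′ on the gene's strand, while the expression values were made on mm9; capitals mark CACCTG and its reverse complement CAGGTG. The Cldn4 window is chr5:134946885-134947184 (minus strand), that of Epcam chr17:87635729-87636028 (plus strand) and that of Krt5 chr15:101712856-101713155 (minus strand).
Cldn4: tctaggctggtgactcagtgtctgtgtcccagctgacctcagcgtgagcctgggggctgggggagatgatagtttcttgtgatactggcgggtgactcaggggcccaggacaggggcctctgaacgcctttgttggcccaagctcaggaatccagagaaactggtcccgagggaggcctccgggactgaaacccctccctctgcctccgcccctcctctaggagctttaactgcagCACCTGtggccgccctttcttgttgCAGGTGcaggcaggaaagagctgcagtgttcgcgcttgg
Epcam: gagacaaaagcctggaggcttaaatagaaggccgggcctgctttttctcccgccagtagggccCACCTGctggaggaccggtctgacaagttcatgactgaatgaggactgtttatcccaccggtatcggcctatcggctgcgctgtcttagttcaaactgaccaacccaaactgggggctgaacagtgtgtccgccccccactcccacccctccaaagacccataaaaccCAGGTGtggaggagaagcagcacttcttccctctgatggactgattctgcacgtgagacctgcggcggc
Krt5: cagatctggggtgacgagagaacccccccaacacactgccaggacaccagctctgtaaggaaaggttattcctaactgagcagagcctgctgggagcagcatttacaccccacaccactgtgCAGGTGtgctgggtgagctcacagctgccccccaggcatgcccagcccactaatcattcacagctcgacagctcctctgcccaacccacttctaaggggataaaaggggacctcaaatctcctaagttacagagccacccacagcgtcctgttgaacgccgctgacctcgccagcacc
Cldn4 held the E-box 14 bases before the start and, on the opposite strand, from position 12 after it, each counted to the match's first base. Epcam held it 187 bases before the start and, on the opposite strand, 19 before it, and Krt5 128 before it on the opposite strand. Searched on both strands, CACCTG lay in 20.2% of all 32851 promoter windows of 300 bases and in those of 22.6% of 27025 genes. Of the cadherin and tight junction list, 14 genes had an entry and 11 of these held it (78.6%). The same count was 1 of 2 for the desmosome list, 3 of 6 for the regulators described next (50%), 1 of 6 for the surface proteases (16.7%), 2 of 7 for the basal list (28.6%) and 6 of 20 for the squamous list (30%), and it says nothing on binding. A second motif, the site AACCGGTT of the grainyhead-like factors described next, was also searched. It lay in 0 windows of each of these lists and in 0.146% of all windows.

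Regulators of epithelial identity stood with these genes: 15 of 16 members rose, 0 fell and 1 did not pass, median 8.82, or 8.01 with genes listed at 0 in 1 line set to 3 reads. Esrp1, an epithelial splicing factor gene, had 3604 and 3064 units in the BBN963 tumours and was listed at 0 in all 4 MB49 tumours (adjusted p = 7.2e-10). Grhl3, a grainyhead-like factor of barrier formation, had 1341 and 1141 units in the BBN963 tumours and was listed at 0 in all 4 MB49 tumours (adjusted p = 2.3e-08). Grhl2, a grainyhead-like activator of junction genes, had 1173 and 1319.9 units in the BBN963 tumours, against 8.32, 0, 0 and 10.5 in the MB49 tumours. Grhl2 rose by 8.60 log2 units (SE 0.93, adjusted p = 2.9e-05). Elf5, an ETS factor gene, was at 998.7 and 1377 units in BBN963 tumours and listed at 0 in MB49 tumours (adjusted p = 1.0e-08) and in both cultures. Grhl1 rose by 6.90 (adjusted p = 5.2e-06). All 12 epithelial surface proteases and inhibitors rose too, with a median of 7.12, or 6.34 with genes listed at 0 in 1 line set to 3 reads. St14, the membrane protease matriptase, had 2909.9 and 3547 units in the BBN963 tumours, against 81.2, 38.2, 41.6 and 16.3 in the MB49 tumours. St14 rose by 6.36 log2 units (SE 0.45, adjusted p = 1.1e-06). Its partner protease Prss8 was at 292 and 196 units in BBN963 tumours, and Tmprss13, Tmprss11e and Prss27 at 852 and 842, 1377 and 1076 and 636 and 539, and all 4 were listed at 0 in all MB49 tumours (adjusted p = 7.6e-07, 2.6e-08, 9.9e-09 and 4.6e-08).

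Of the luminal urothelial list, 14 of 18 members could be tested. Of these, 8 of 14 members rose, 2 fell and 4 did not pass, median 1.17, or 1.45 with genes listed at 0 in 1 line set to 3 reads. The uroplakin genes of the umbrella cell, which form its plaques, were at most 22.9 units in any of the 6 tumours. Upk1a was listed at 0 in both BBN963 tumours and had 22.9, 5.61, 5.33 and 11.7 units in the MB49 tumours (adjusted p = 0.0087). The most frequent low value of BBN963 tumour 1, 24.1 units, lay above all 4, and the call was lost with a pseudocount of 10, quantile normalization, all 36 libraries and the replicate block (adjusted p = 0.13, 0.11, 0.21 and 0.056). Upk1b and Upk2 did not exceed 3.37 units, and Upk3a and Upk3b were listed at 0 in all 6 tumours. The members that rose include Erbb2, a receptor gene, with 1336 and 1471 units in BBN963 tumours against 425, 615, 611 and 664 in MB49 tumours (log2 difference 1.29, SE 0.22, adjusted p = 6.7e-04). Cd24a, a surface glycoprotein gene also found in other cell types, had 6659 and 7105 units in the BBN963 tumours, against 185, 130.2, 94.9 and 221 in the MB49 tumours. Cd24a rose by 5.51 log2 units (SE 0.28, adjusted p = 7.3e-08). The luminal list shares Krt20, Psca and Erbb2 with the descriptions above, and none of its calls rested on uroplakins being higher in BBN963 tumours.

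Over all genes 15.8% were higher and 26.1% lower, and the counts of the mesenchymal list were near those shares. Of this list, 4 of 17 members rose, 5 fell and 8 did not pass, median 0.17. The sign of this median turned without BBN963 tumour 1 (-0.13) or MB49 tumour 2 (-0.061), and it was 0.40 without BBN963 tumour 2 and 0.32 without MB49 tumour 4. Vim, vimentin, the intermediate filament gene of mesenchymal cells, had 3708 and 2266 units in the BBN963 tumours, against 73349, 62805, 63975 and 65174 in the MB49 tumours. Vim fell by 4.51 log2 units (SE 0.30, adjusted p = 7.5e-07). Zeb1, a repressor of adhesion genes, had 83.8 and 118 units in the BBN963 tumours, against 1401, 1343, 1507 and 1695 in the MB49 tumours. Zeb1 fell by 3.88 log2 units (SE 0.45, adjusted p = 4.6e-05). S100a4 and Axl, a calcium-binding protein gene and a receptor kinase gene, fell by 5.09 and 4.07 log2 units (adjusted p = 7.2e-10 and 6.7e-06). Axl stood at 14293 and 15659.8 units in the BBN963 and MB49 cultures, where it did not differ by 1 log2 unit. Snai2, the Snail-family repressor also used by basal cells, had 1309.6 and 1069 units in the BBN963 tumours, against 113, 132, 129 and 118 in the MB49 tumours. Snai2 rose by 3.26 log2 units (SE 0.22, adjusted p = 7.0e-07). Vim, Zeb1 and S100a4 were thus low in both BBN963 tumours and Snai2 was high. The count of 4 higher went to 1 without BBN963 tumour 1 and to 2 without BBN963 tumour 2, and the groups did not overlap in 3 of the 4 that rose. Vimentin is also made by fibroblasts, endothelium and leukocytes of the host, and in bulk tissue fewer cells of a type and less RNA per cell cannot be told apart.

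**Figure D2:**
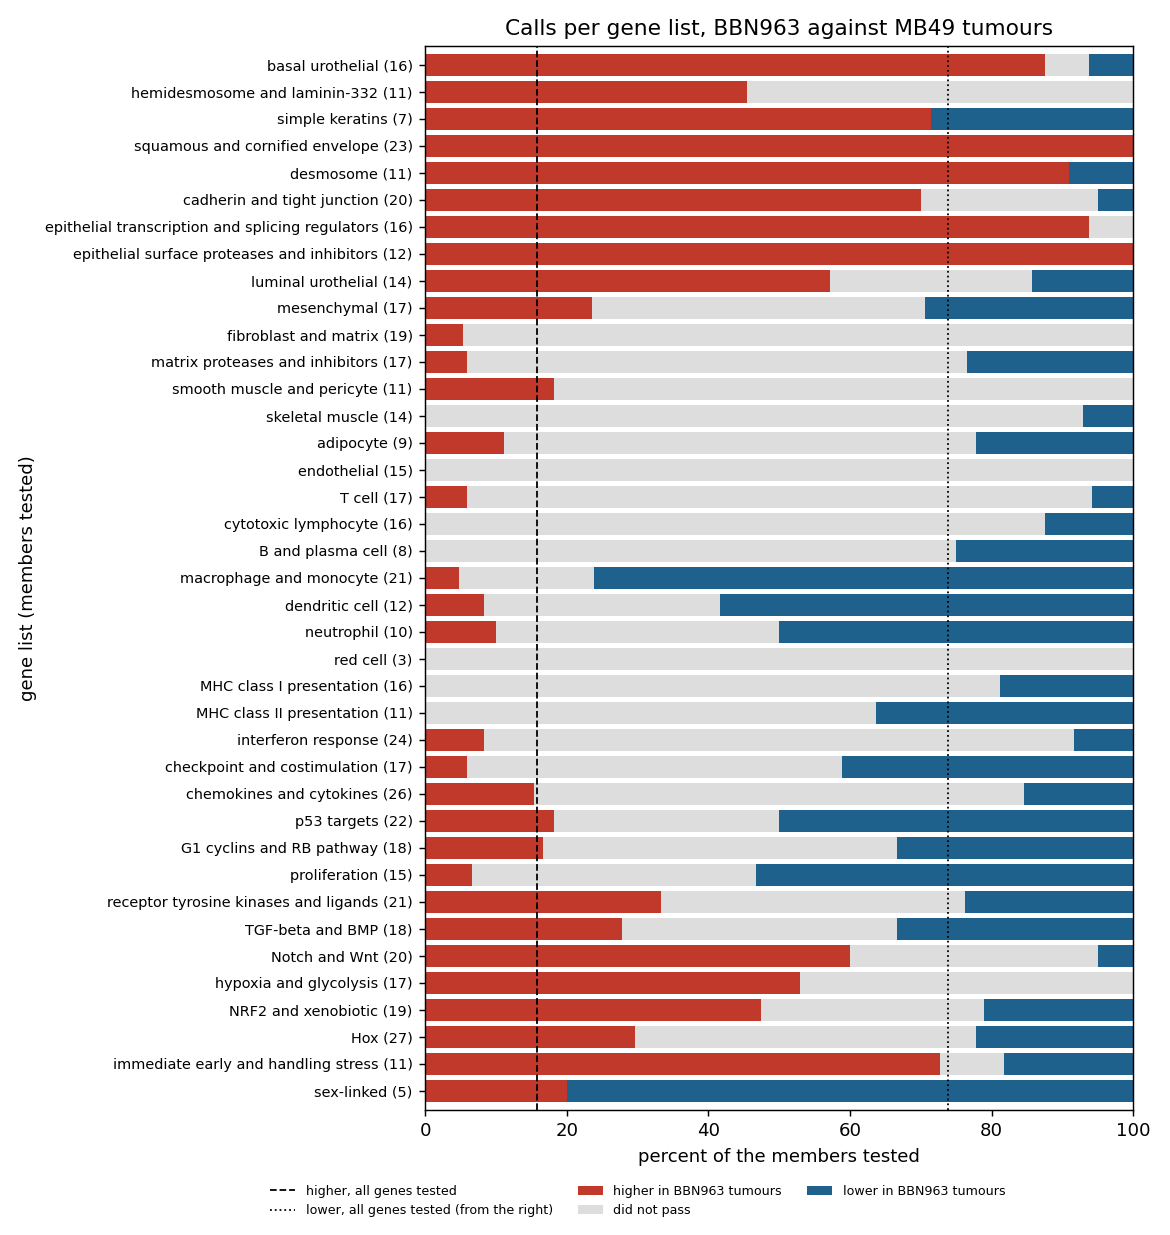
Share of tested members of each of the 39 gene lists that were higher, did not pass or were lower in BBN963 than in MB49 tumours, with the number tested in brackets; the dashed line marks 15.8% and the dotted line 26.1% from the right, the shares over all genes tested. Squamous, surface protease and regulator lists are nearly all higher, endothelial genes do not pass, and most macrophage genes are lower.

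Stromal genes gave few calls, beside 15.8% higher and 26.1% lower over all genes. Of the fibroblast and matrix list, 1 of 19 members rose, 0 fell and 18 did not pass, median 0.61, and its summed level was 204700.0 and 136100.0 units in BBN963 tumours, against 224200.0, 63800.0, 49980.0 and 79270.0 in MB49 tumours. Col1a1, a chain of fibrillar collagen, had 36115 and 26033 units in the BBN963 tumours, against 27432, 4348, 2997 and 6143 in the MB49 tumours. Col1a1 did not pass, with a log2 difference of 2.16 (SE 0.85, adjusted p = 0.063). Col1a2, its partner chain, had 48066 and 33832 units in the BBN963 tumours, against 34966, 4509.5, 3931 and 7332 in the MB49 tumours. Col1a2 rose by 2.30 log2 units (SE 0.82, adjusted p = 0.043). MB49 tumour 1 stood among the BBN963 tumours and the other 3 MB49 tumours lay below them. Without MB49 tumour 1 the list had 6 members higher and a median of 1.14, and without BBN963 tumour 2 the median was 0.92. It had 0 higher without BBN963 tumour 1 or 2 or MB49 tumour 2, 3 or 4, where the adjusted p of Col1a2 was 0.079 to 0.2, and 1 lower without BBN963 tumour 2 or MB49 tumour 2. Smooth muscle and pericyte genes gave these counts: 2 of 11 members rose, 0 fell and 9 did not pass, median 0.61, or 1.22 without BBN963 tumour 2. Acta2, the smooth muscle actin of muscle and myofibroblasts, had 4203 and 2463 units in the BBN963 tumours, against 3164, 549, 425 and 530.3 in the MB49 tumours. Acta2 did not pass, with a log2 difference of 2.02 (SE 0.76, adjusted p = 0.051). Tagln, transgelin, had 3265 and 2983 units in the BBN963 tumours, against 1869, 264, 259 and 334 in the MB49 tumours. Tagln rose by 2.78 log2 units (SE 0.74, adjusted p = 0.011). Actg2, enteric smooth muscle actin, had 849 and 315 units in the BBN963 tumours, against 388, 4.49, 0 and 8.16 in the MB49 tumours. Actg2 rose by 5.45 log2 units (SE 1.79, adjusted p = 0.03). MB49 tumour 1 was again above the other 3 in these genes. Without it 4 members of the list were higher, without BBN963 tumour 1 or 2 none were, and without MB49 tumour 2, 3 or 4 the count was 1. Without BBN963 tumour 1 the adjusted p was 0.072 for Tagln and 0.17 for Actg2, and without BBN963 tumour 2 it was 0.054 and 0.074. Without MB49 tumours 2, 3 and 4 in turn Actg2 had an adjusted p of 0.063, 0.056 and 0.057. The part of MB49 tumour 1 in the matrix and muscle counts was measured only by leaving it out.

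**Figure D3:**
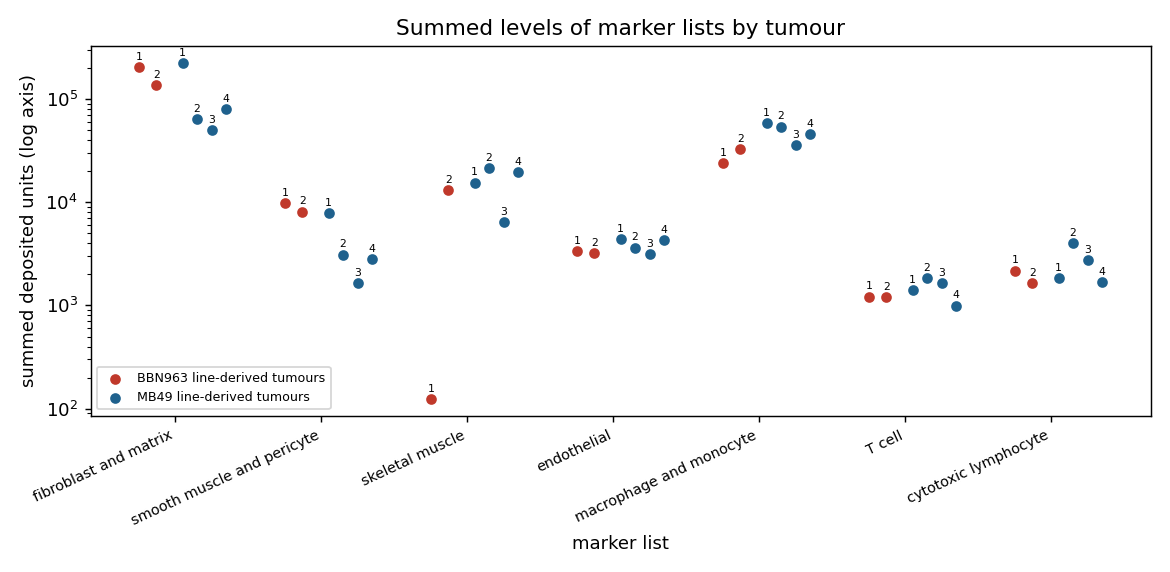
Summed deposited units of 7 marker lists in each tumour on a log axis, BBN963 left of MB49, with tumour numbers above the points. MB49 tumour 1 lies with the BBN963 tumours in the fibroblast list, and BBN963 tumour 1 lies at 124 units in the skeletal muscle list, where the other 5 tumours reach 6370 or more.

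Skeletal muscle genes set 1 BBN963 tumour apart: the summed level was 124 and 13080.0 units in the BBN963 tumours, against 15450.0, 21370.0, 6370.0 and 19410.0 in the MB49 tumours. It was 62.04 and 62.6 in the BBN963 and MB49 cultures. Of this list, 0 of 14 members rose, 1 fell and 13 did not pass, median -4.64. That median was -0.034 without BBN963 tumour 1 and -9.23 without BBN963 tumour 2. Myh4, a fast muscle myosin gene, had 0 and 1246 units in the BBN963 tumours, against 1968, 2825, 1481 and 3385 in the MB49 tumours (adjusted p = 0.047; adjusted p = 0.7 without BBN963 tumour 1 and 0.068 to 0.088 without any 1 MB49 tumour). Without BBN963 tumour 2, 11 members were lower, and without any other tumour none were; without BBN963 tumour 1, 1 member was higher. Acta1, the skeletal actin gene, had 29.2 and 3036 units in BBN963 tumours and 3915, 5045, 1078 and 3988 in MB49 tumours and did not pass (adjusted p = 0.21). Ckm, muscle creatine kinase, had 0 and 940.0 units in BBN963 tumours and 1375, 1838, 673 and 1985 in MB49 tumours and did not pass either (adjusted p = 0.073). These genes were near 0 in both cultures, and whether muscle tissue next to a tumour entered the sample was not tested. Among adipocyte genes, 1 of 9 members rose, 2 fell and 6 did not pass, beside 15.8% higher and 26.1% lower over all genes. The median of this list was -2.72, or -2.29 with genes listed at 0 in 1 line set to 3 reads and -0.27 without BBN963 tumour 1. Lpl, lipoprotein lipase, had 115 and 191 units in the BBN963 tumours, against 1134, 1264, 1324 and 524 in the MB49 tumours. Lpl fell by 2.74 log2 units (SE 0.47, adjusted p = 7.8e-04). Adipoq, the defining adipocyte hormone gene, was listed at 0 in both BBN963 tumours, did not exceed 47.8 units in MB49 tumours and did not pass (adjusted p = 0.13). Cd36, a fatty acid receptor gene also made by macrophages and endothelium, fell by 2.29 (adjusted p = 0.019; 0.12 without BBN963 tumour 2). Lipe, hormone-sensitive lipase, rose by 1.05 (adjusted p = 0.044; 0.088 to 0.19 without BBN963 tumour 1 or 2 or MB49 tumour 3 or 4). Plin1, the lipid droplet gene, was too low for a test. No endothelial member passed of 15 tested in limma, median -0.15. That median was 0.21 without BBN963 tumour 1, 0.18 without BBN963 tumour 2, 0.038 without MB49 tumour 1, -0.093 without MB49 tumour 2 and 0.031 with median-of-ratios scaling. Pecam1, the endothelial adhesion gene, had 799 and 797 units in the BBN963 tumours, against 972, 971, 788 and 834 in the MB49 tumours. Pecam1 did not pass, with a log2 difference of -0.15 (SE 0.40, adjusted p = 0.79). Cdh5, endothelial cadherin, did not pass either (adjusted p = 0.1). In that list 1 gene was higher without MB49 tumour 1 and 1 was lower without BBN963 tumour 2. Of the matrix proteases and inhibitors, 1 of 17 members rose, 4 fell and 12 did not pass, beside the same shares over all genes. The median of this list was -0.17, or -0.35 without BBN963 tumour 2, -0.078 without MB49 tumour 1 and -0.39 without MB49 tumour 3. Timp2, an inhibitor of metalloproteases, was at 2085 and 1485 units in BBN963 tumours and 11579, 13380.5, 10907 and 11615 in MB49 tumours (log2 difference -2.75, SE 0.39, adjusted p = 2.0e-04). Plat, tissue plasminogen activator, fell by 2.38 (adjusted p = 8.8e-05). Adamts1, a secreted protease gene, rose by 1.31 (adjusted p = 0.0012), and without MB49 tumour 1 the higher count was 2. Mmp3 and Mmp10, stromelysins, did not pass (adjusted p = 0.082 and 0.22); Mmp3 was highest in MB49 tumour 1, at 6963 units.

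Macrophage genes were mostly lower in BBN963 tumours: 1 of 21 members rose, 16 fell and 4 did not pass, median -1.88, against 26.1% of all genes lower. That median was -1.62 without BBN963 tumour 1 and -2.79 without BBN963 tumour 2. Csf1r, the receptor that macrophages need to survive, had 635 and 653 units in the BBN963 tumours, against 2432, 2649, 1894 and 2050.1 in the MB49 tumours. Csf1r fell by 1.79 log2 units (SE 0.26, adjusted p = 2.2e-04). Msr1, a scavenger receptor gene, had 142 and 125 units in the BBN963 tumours, against 2334, 2534, 1942 and 2645 in the MB49 tumours. Msr1 fell by 4.13 log2 units (SE 0.23, adjusted p = 1.9e-07). Mrc1, the mannose receptor gene, had 131 and 473 units in the BBN963 tumours, against 3667, 3701, 2990.4 and 5259 in the MB49 tumours. Mrc1 fell by 3.94 log2 units (SE 0.46, adjusted p = 4.9e-05). All 4 MB49 tumours lay above both BBN963 tumours in these 3 genes, and Csf1r and Msr1 were listed at 0 in both cultures. Cd68, a lysosomal marker that cultures also held (247 and 172 units in BBN963 and MB49 cells), fell by 1.15 (adjusted p = 0.0058; 0.076 without BBN963 tumour 1). Arg1, arginase, went the other way, at 8791 and 13738 units in BBN963 tumours and 763, 1052, 193 and 381 in MB49 tumours (log2 difference 4.47, SE 0.55, adjusted p = 7.0e-05). The summed list was at 23930.0 and 32770.0 units in BBN963 tumours and 58300.0, 54010.0, 35950.0 and 45570.0 in MB49 tumours, Arg1 included. The ligands of Csf1r were lower as well. Csf1 had 572 and 531 units in the BBN963 tumours, against 3912, 4057, 3657 and 3442 in the MB49 tumours. Csf1 fell by 2.77 log2 units (SE 0.23, adjusted p = 4.3e-06). Il34 had 115 and 62.5 units in the BBN963 tumours, against 1783, 969, 1364 and 1459 in the MB49 tumours. Il34 fell by 3.99 log2 units (SE 0.33, adjusted p = 3.3e-06). The cultures held Csf1 at 1746 and 6497 units and Il34 at 111 and 425 in BBN963 and MB49 cells, and whether the ligands bear on the macrophage genes was not tested.

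Dendritic cell genes gave 1 rise, 7 falls and 4 that did not pass of 12 tested, beside 15.8% higher and 26.1% lower over all genes. The median of this list was -1.97, or -1.46 with genes listed at 0 in 1 line set to 3 reads. The count of falls was 4 and the median -1.20 without BBN963 tumour 1. Itgax, the CD11c integrin chain shared with macrophages, was at 447 and 631 units in BBN963 tumours and 1153, 1045, 1597 and 1259.9 in MB49 tumours (log2 difference -1.23, SE 0.26, adjusted p = 0.0028). Flt3, a progenitor receptor gene, was listed at 0 in both BBN963 tumours and had 305, 281, 415 and 318 units in the MB49 tumours (adjusted p = 1.0e-05). The cultures had the same order, with 0 and 740.1 units of Flt3 in BBN963 and MB49 cells. Ly75, an uptake receptor gene, fell by 2.11 log2 units in the tumours (adjusted p = 0.0016), and the cultures held 298 and 2514 units. Siglech, a plasmacytoid dendritic cell gene, was listed at 0 in BBN963 tumours and did not exceed 15.6 units in MB49 tumours (adjusted p = 0.0071), all below the 24.1 units given above. Its call was lost in edgeR (adjusted p = 0.051) and without tumour 1 of both lines (adjusted p = 0.055). Fscn1, fascin, which the BBN963 culture held at 6377 units, was the gene that rose (6346 and 6484 units in BBN963 tumours, 1077, 469, 410.4 and 469.7 in MB49 tumours, log2 difference 3.52, SE 0.32, adjusted p = 8.0e-06). Of neutrophil genes, 1 of 10 members rose, 5 fell and 4 did not pass, median -1.74, beside the same shares over all genes. Falls numbered 2 without BBN963 tumour 1 and 3 without BBN963 tumour 2. Csf3r and Cxcr2, receptors of neutrophil growth and migration, fell by 2.44 and 1.77 (adjusted p = 0.0043 and 0.0048), whereas S100a8 and S100a9, the calprotectin genes, did not pass (adjusted p = 0.49 and 0.57). Ltf, lactoferrin, a gene of neutrophil granules and of epithelium, was at 7105 and 14881 units in BBN963 tumours and 0, 44.9, 7.46 and 16.3 in MB49 tumours (log2 difference 10.15, SE 1.09, adjusted p = 2.8e-05). The BBN963 and MB49 cultures had 1828 and 0 units.

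Most lymphocyte genes did not pass, and the counts below stand beside 15.8% higher and 26.1% lower over all genes. Of the T cell list, 1 of 17 members rose, 1 fell and 15 did not pass, median -0.35. Without BBN963 tumours 1 and 2 in turn that median was -0.030 and -0.71, and without MB49 tumours 2, 3 and 4 it was -0.20, -0.14 and -0.55. Of the cytotoxic list, 0 of 16 members rose, 2 fell and 14 did not pass, median -1.01, or -0.89 with genes listed at 0 in 1 line set to 3 reads and -0.66 without BBN963 tumour 2. Cd3e, the T cell receptor chain gene, had 39.3 and 71.1 units in BBN963 tumours and 32.3, 139, 104 and 44.3 in MB49 tumours (log2 difference -0.35, SE 1.38, adjusted p = 0.87). Cd8a, the cytotoxic co-receptor gene, had 185 and 326 units in BBN963 tumours and 153, 459, 434 and 237 in MB49 tumours (log2 difference -0.25, SE 1.55, adjusted p = 0.92). The groups overlapped in both genes, Cd3d and Gzmb did not pass either (adjusted p = 0.78 and 0.69), and the lack of a call does not show equal levels. The test's spread is shared with the 4 UPPL1541 tumours, which varied widely in these genes. Among those, Cd3e averaged 24.18 units (SD 40.31) and Cd8a 26.52 (SD 41.95). Prf1, perforin, had 29.2 and 12.3 units in the BBN963 tumours, against 131, 355, 239.9 and 138 in the MB49 tumours. Prf1 fell by 3.31 log2 units (SE 1.13, adjusted p = 0.035). The call was lost without BBN963 tumour 1 or 2 or MB49 tumour 2, 3 or 4 (adjusted p = 0.053 to 0.18). Gzmk, a granzyme gene, was listed at 0 in BBN963 tumours and at 8.32, 19.1, 35.2 and 8.16 units in MB49 tumours (adjusted p = 0.0035), of which only tumour 3 exceeded 24.1 units. The cytotoxic falls numbered 1 without BBN963 tumour 2 or MB49 tumour 2, 3 or 4. Cd4, the helper co-receptor gene, was at 0 and 58.8 units in BBN963 tumours and 199, 199, 52.2 and 71.1 in MB49 tumours (log2 difference -3.85, SE 1.30, adjusted p = 0.034). It lost its call without BBN963 tumour 1 (0.49), MB49 tumour 1 (0.065) or MB49 tumour 2 (0.073, adjusted p each). Tcf7, a T cell factor gene that the BBN963 culture held at 259 units, rose by 1.82 (adjusted p = 0.0036). Without MB49 tumour 1 the T cell list had 2 higher, and without BBN963 tumour 2 it had 2 lower. Of 8 B and plasma cell genes tested, 2 fell and 6 did not pass, median -1.20, or -0.60 with genes listed at 0 in 1 line set to 3 reads. That median was -2.05 without BBN963 tumour 1 and -0.010 without BBN963 tumour 2. The count of falls was 1 without BBN963 tumour 2 or MB49 tumour 1 or 4. Cd79b, a B cell receptor chain gene, was listed at 0 in BBN963 tumours and at 69.7, 46.02, 15.99 and 46.6 units in MB49 tumours (adjusted p = 6.5e-04). Cd22 fell by 1.65 (adjusted p = 0.04), a call that was lost without BBN963 tumour 2 or MB49 tumour 1, 2 or 4 (adjusted p = 0.067 to 0.24), and the defining gene Ms4a1 was listed at 0 in all 6 tumours. Red cell genes, among them Hbb-b1 (adjusted p = 0.74), gave no call of 3 tested in limma, and 2 of the 6 fixed were not found.

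**Figure D4:**
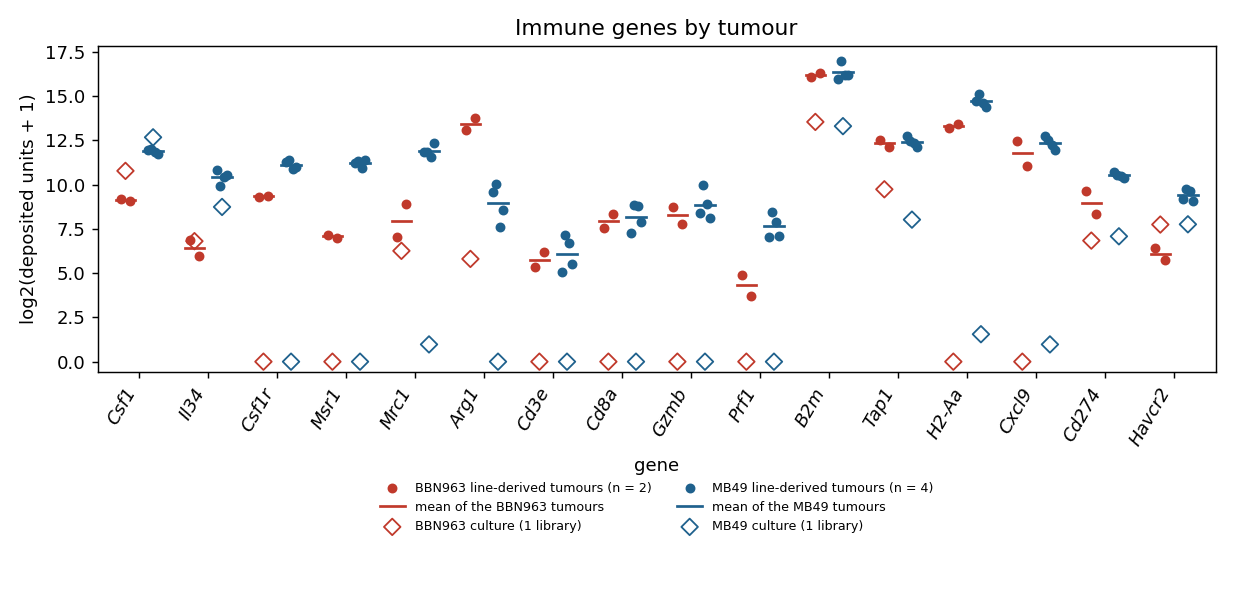
Levels of 16 immune genes as log2(deposited units + 1), with each tumour as a point, group means as short lines and the single cultures as open diamonds, BBN963 left of MB49. Csf1, Il34, Csf1r, Msr1 and Mrc1 lie lower in both BBN963 tumours, Arg1 lies higher, and Cd3e, Cd8a and Gzmb overlap between the lines.

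Antigen presentation by class I, which shows peptides to cytotoxic cells, gave few calls: 0 of 16 members rose, 3 fell and 13 did not pass, median -0.68. Without overlap between the groups, 10 of the 16 lay below in BBN963 tumours and 0 above, against 32.2% and 21.3% of all genes. B2m, the invariant chain of class I, had 68708 and 80183 units in BBN963 tumours and 64466, 128861, 73420.0 and 74442 in MB49 tumours (log2 difference -0.15, SE 0.70, adjusted p = 0.89). In the UPPL1541 tumours, which share the spread of the test, B2m averaged 20930 units (SD 25630, n = 4). The transporter gene Tap1 did not pass (log2 difference -0.078, SE 0.58, adjusted p = 0.94). H2-M3, a non-classical class I gene, Erap1, a peptide trimmer, and Tapbp, tapasin, fell by 2.47, 1.09 and 0.79 (adjusted p = 1.4e-04, 0.0052 and 0.045). Tapbp lost its call without BBN963 tumour 1 or 2 or MB49 tumour 1, 2 or 3 (adjusted p = 0.066 to 0.19). H2 genes are close copies of each other, so their reads may be split. Of class II genes, 0 of 11 members rose, 4 fell and 7 did not pass, median -1.25. For both classes the calls stand beside 15.8% higher and 26.1% lower over all genes. Without overlap between the groups, 9 of the 11 lay below in BBN963 tumours and 0 above. The count of falls was 1 without BBN963 tumour 1, 2 without BBN963 tumour 2, 2 without MB49 tumour 2 and 1 with median-of-ratios scaling. H2-Aa, a class II chain gene, had 9456 and 10755 units in the BBN963 tumours, against 26776, 34932, 25317 and 21601 in the MB49 tumours. H2-Aa fell by 1.41 log2 units (SE 0.45, adjusted p = 0.027). Its call was lost without BBN963 tumour 1 or 2 or MB49 tumour 2 (adjusted p = 0.06 to 0.14). Cd74, the invariant chain gene, was lower in both BBN963 tumours than in any MB49 tumour but did not pass (adjusted p = 0.59). H2-Oa, a class II chain gene of B cells, was listed at 0 in BBN963 tumours and at 83.2, 79.7, 44.8 and 66.4 units in MB49 tumours (adjusted p = 5.0e-04). H2-DMa and Ctss, which load class II peptides and cut the invariant chain, fell by 1.25 and 1.01 (adjusted p = 0.024 and 0.022), and without BBN963 tumour 1 had 0.068 and 0.16. Without BBN963 tumour 2 the adjusted p was 0.14 and 0.051, and H2-DMa had 0.053 without MB49 tumour 2.

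Interferon response genes mostly did not pass: 2 of 24 members rose, 2 fell and 20 did not pass, median -0.17. The sign of this median turned without BBN963 tumour 1 (0.063), BBN963 tumour 2 (0.064) or MB49 tumour 2 (0.095) and with median-of-ratios scaling (0.012), and it was -0.095 without MB49 tumour 3. Isg15 and Usp18 rose by 1.23 and 1.25 (adjusted p = 0.036 and 0.025). Isg15 lost its call without BBN963 tumour 1 or 2 or MB49 tumour 3 or 4 (adjusted p = 0.073 to 0.17). Usp18 lost its call without BBN963 tumour 1 or 2 or MB49 tumour 1 or 4 (adjusted p = 0.051 to 0.11). Ddx58, an RNA sensor gene, fell by 1.07 (adjusted p = 0.018; 0.22 without BBN963 tumour 1). Irf1, an interferon-induced factor gene, did not pass (adjusted p = 0.14). The higher count was 0 without BBN963 tumour 1 or 2 or MB49 tumour 4, 1 without MB49 tumour 1 or 3 and 3 without MB49 tumour 2, and the lower count was 0 without BBN963 tumour 1 and 1 without any other tumour. Checkpoint and costimulation genes gave 1 rise and 7 falls of 17 tested, median -1.41, with 3 falls, 2 rises and a median of -0.72 without BBN963 tumour 1. Cd274, the ligand PD-L1 that restrains T cells, had 786 and 321 units in the BBN963 tumours, against 1685, 1511, 1429.6 and 1343 in the MB49 tumours. Cd274 fell by 1.56 log2 units (SE 0.42, adjusted p = 0.012). It lost its call without BBN963 tumour 2 (adjusted p = 0.16). Havcr2, a receptor gene of T cells and macrophages, had 85.03 and 51.5 units in the BBN963 tumours, against 569, 851, 795 and 529 in the MB49 tumours. Havcr2 fell by 3.32 log2 units (SE 0.30, adjusted p = 8.2e-06). Cd276, a B7-family ligand gene, fell by 1.41 (adjusted p = 4.5e-04), and Tnfrsf18, a costimulatory receptor gene, rose by 2.78 (adjusted p = 0.0032). Pdcd1, the receptor of PD-L1, had 15.2 and 63.7 units in BBN963 tumours and 21.9, 125, 133 and 48.95 in MB49 tumours and did not pass (adjusted p = 0.52). Havcr2 was at 213 and 215 units in the BBN963 and MB49 cultures. Of chemokines and cytokines, 4 of 26 members rose, 4 fell and 18 did not pass, beside 15.8% higher and 26.1% lower over all genes. The median of this list was -0.42, or -0.026 without BBN963 tumour 1 and -0.27 without MB49 tumour 1. Cxcl9 and Cxcl10, interferon-induced attractants of T cells, did not pass (adjusted p = 0.77 and 0.61). Il33, an alarmin of epithelium, had 4735 and 4435 units in the BBN963 tumours, against 64.5, 467, 199 and 237 in the MB49 tumours. Il33 rose by 4.55 log2 units (SE 0.58, adjusted p = 9.2e-05). The BBN963 and MB49 cultures held 775 and 5.78 units.

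Trp53, which encodes p53, had 401 and 649.5 units in BBN963 tumours, against 1256, 1184, 1456 and 1516 in MB49 tumours (log2 difference -1.40, SE 0.31, adjusted p = 0.0036). Without BBN963 tumour 1 the adjusted p was 0.054, and the cultures had the opposite order, 3017 and 1937 units in BBN963 and MB49 cells. Of p53 target genes, 4 of 22 members rose, 11 fell and 7 did not pass, median -0.95, with 7 lower without BBN963 tumour 2. Mdm2, the p53 antagonist, had 565 and 719 units in the BBN963 tumours, against 3525, 1627, 3018 and 3611 in the MB49 tumours. Mdm2 fell by 2.14 log2 units (SE 0.30, adjusted p = 1.9e-04). The cultures had 2293 and 15328 units in BBN963 and MB49 cells. Cdkn1a, the p21 inhibitor of cyclin kinases, was at 4193 and 5528 units in BBN963 tumours and 2709, 1862, 2579 and 3471 in MB49 tumours (log2 difference 0.89, SE 0.25, adjusted p = 0.013; 0.12 without BBN963 tumour 2, adjusted p). Phlda3 and Pmaip1, an Akt inhibitor and the death gene Noxa, rose by 5.85 and 2.94 (adjusted p = 6.4e-07 and 2.8e-06). Polk, a repair polymerase gene, fell by 2.42 (adjusted p = 5.2e-05), so the list held calls in both directions. In the G1 and RB list, 3 of 18 members rose, 6 fell and 9 did not pass, beside 15.8% higher and 26.1% lower over all genes. With median-of-ratios scaling 6 were higher. The list's median was -0.32, or -0.23 with genes listed at 0 in 1 line set to 3 reads. The median was -0.089 without BBN963 tumour 1, -0.52 without BBN963 tumour 2 and -0.13 with median-of-ratios scaling. Cdkn2a, the locus of the inhibitors p16 and Arf, had 726 and 806 units in the BBN963 tumours, against 0, 0, 6.40 and 0 in the MB49 tumours. Cdkn2a rose by 8.86 log2 units (SE 0.74, adjusted p = 3.8e-06). The cultures of BBN963 and MB49 had 1279.8 and 1.93 units. Ccnd1, cyclin D1, had 2813 and 3533 units in the BBN963 tumours, against 21745, 17572, 23077 and 17910.3 in the MB49 tumours. Ccnd1 fell by 2.66 log2 units (SE 0.19, adjusted p = 1.3e-06). In the cultures Ccnd1 had 18316 and 16799 units. Cdkn2c, a further kinase inhibitor gene, and E2f1, an S phase factor gene, fell by 2.89 and 2.00 (adjusted p = 2.8e-05 and 5.4e-05). Of proliferation genes, 1 of 15 members rose, 8 fell and 6 did not pass, median -0.61, with 5 lower without BBN963 tumour 2 and 5 under median-of-ratios scaling. Mki67, a gene of cycling cells, had 4123 and 4165 units in the BBN963 tumours, against 6379, 7661, 9138 and 7657 in the MB49 tumours. Mki67 fell by 0.88 log2 units (SE 0.18, adjusted p = 0.0024). Mcm2, a replication helicase gene, fell by 1.66 (adjusted p = 1.3e-05). Foxm1 and Bub1, mitotic genes, fell by 1.20 and 1.13 (adjusted p = 0.0014 and 0.0014), and Top2a by 0.51 (adjusted p = 0.019; 0.13 without BBN963 tumour 2). Mki67, Top2a, Bub1 and Foxm1 were higher in the BBN963 culture than in the MB49 culture, and Mki67 had 12149.6 and 3035 units there.

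Of receptor tyrosine kinases and ligands, 7 of 21 members rose, 5 fell and 9 did not pass, beside 15.8% higher and 26.1% lower over all genes. The median of this list was -0.017 and lay between -0.17 and 0.20 without 1 tumour. Fgfr3, a fibroblast growth factor receptor gene of urothelium, had 3175 and 2822 units in the BBN963 tumours, against 54.1, 169, 109 and 109.6 in the MB49 tumours. Fgfr3 rose by 4.86 log2 units (SE 0.38, adjusted p = 2.5e-06). Its relative Fgfr2 had 3622 and 4152 units in the BBN963 tumours, against 0, 0, 7.46 and 6.99 in the MB49 tumours. Fgfr2 rose by 10.40 log2 units (SE 0.85, adjusted p = 3.2e-06). Both were lower in the BBN963 culture than in either BBN963 tumour, at 142 and 631 units. Areg, amphiregulin, a ligand of the receptor that Egfr encodes, was at 629 and 424 units in BBN963 tumours and listed at 0 in MB49 tumours (adjusted p = 2.8e-07). The BBN963 and MB49 cultures had 3339 and 0 units of it, and Egfr itself fell. In the TGF-beta and BMP list, 5 of 18 members rose, 6 fell and 7 did not pass, beside the same shares over all genes. Its median was 0.052 and lay between -0.35 and 0.04 without 1 tumour. Tgfb1 and Tgfb2, ligand genes, did not pass (adjusted p = 0.92 and 0.94). Bmp7, a bone morphogenetic protein gene, had 1008 and 1043 units in the BBN963 tumours, against 0, 6.73, 2.13 and 0 in the MB49 tumours. Bmp7 rose by 8.85 log2 units (SE 0.75, adjusted p = 4.4e-06). Ltbp1, which stores latent TGF-beta, and Fst, an activin trap, fell by 2.50 and 2.60 (adjusted p = 2.1e-05 and 2.3e-04). Notch and Wnt genes were more often higher: 12 of 20 members rose, 1 fell and 7 did not pass, median 1.86, against 15.8% of all genes higher. That median was 1.63 without BBN963 tumour 1 and 2.43 without BBN963 tumour 2. Notch3, a receptor gene, had 1669 and 1635 units in the BBN963 tumours, against 75.96, 38.2, 51.2 and 77.3 in the MB49 tumours. Notch3 rose by 4.80 log2 units (SE 0.30, adjusted p = 4.0e-07). Jag2, a Notch ligand gene, rose by 5.99 (adjusted p = 8.8e-07). Notch1, which drives squamous differentiation, rose by 0.76 (adjusted p = 0.027; 0.23, 0.05 and 0.061 without BBN963 tumour 1, MB49 tumour 1 and MB49 tumour 4) and Notch2 fell by 0.97 (adjusted p = 0.0024). Fzd10, a Wnt receptor gene, was at 114 and 53.9 units in BBN963 tumours and at most 2.13 in MB49 tumours (adjusted p = 4.2e-05).

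Of hypoxia and glycolysis genes, 9 of 17 members rose, 0 fell and 8 did not pass, median 0.79, or 0.51 without BBN963 tumour 2. Egln3, a prolyl hydroxylase that HIF induces, had 38871 and 50190.0 units in the BBN963 tumours, against 1486, 2788, 1818 and 1587 in the MB49 tumours. Egln3 rose by 4.57 log2 units (SE 0.29, adjusted p = 4.5e-07). Ndrg1, another hypoxia-induced gene, had 31359 and 37376 units in the BBN963 tumours, against 3598, 7275, 3193 and 3372 in the MB49 tumours. Ndrg1 rose by 3.06 log2 units (SE 0.42, adjusted p = 1.5e-04). The BBN963 and MB49 cultures had 822 and 5459.9 units. Hk2 and Slc2a1, hexokinase and the glucose transporter, rose by 2.30 and 2.03 (adjusted p = 1.2e-04 and 3.9e-05), and Vegfa, the vessel growth factor, by 1.86 (adjusted p = 0.0038). In this list 12 of 17 members were higher in both BBN963 tumours than in any MB49 tumour, against 21.3% of all genes. The 5 named members, picked in part by their p-values, are among these. Of NRF2 and xenobiotic genes, 9 of 19 members rose, 4 fell and 6 did not pass, beside 15.8% higher and 26.1% lower over all genes. The median of this list was 0.92, or 1.02 without BBN963 tumour 1 and 0.76 without BBN963 tumour 2. The falls numbered 2 without BBN963 tumour 1 or MB49 tumour 3 or 4. Gsto1, a glutathione transferase gene, had 85175 and 122903 units in the BBN963 tumours, against 3477, 4247, 3399.8 and 3290.2 in the MB49 tumours. Gsto1 rose by 4.83 log2 units (SE 0.26, adjusted p = 1.1e-07). Nqo1, the quinone reductase gene that NRF2 induces, had 407 and 519.6 units in the BBN963 tumours, against 14.6, 12.3, 1.07 and 2.33 in the MB49 tumours. Nqo1 rose by 6.23 log2 units (SE 0.79, adjusted p = 9.6e-05). Gsta4, a further transferase gene, and Gclm, a subunit of glutathione synthesis, rose by 4.73 and 1.93 (adjusted p = 7.5e-07 and 1.6e-04). The catalytic subunit gene Gclc fell by 0.69 (adjusted p = 0.034). It lost its call without BBN963 tumour 1 (0.23), MB49 tumour 3 (0.082) or MB49 tumour 4 (0.061, adjusted p each). Immediate early and handling stress genes, which can respond to excision, also differed: 8 of 11 members rose, 2 fell and 1 did not pass, median 1.80, with 4 higher without BBN963 tumour 1 and 5 higher and 1 lower without BBN963 tumour 2. Hspa1b, a heat shock gene, rose by 3.81 (adjusted p = 4.3e-05), Junb and Ier2 by 1.80 and 2.06 (adjusted p = 9.7e-05 and 6.3e-05). Fos rose by 2.08 (adjusted p = 0.0059; 0.051 without BBN963 tumour 1), while Fosb fell by 4.76 (adjusted p = 0.0021). How long each tumour waited before RNA was preserved is not given, and the part of handling in these genes was not tested.

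Hox genes, which keep a record of position along the body axis, gave calls both ways: of 27 of 39 tested, 8 rose, 6 fell and 13 did not pass, median 1.19, or 0.50 with genes listed at 0 in 1 line set to 3 reads, with 3 falls without BBN963 tumour 1. Beside these counts, 15.8% of all genes were higher and 26.1% lower. The median of the Hox list was 0.65 without BBN963 tumour 2 and 0.57 without MB49 tumour 4. Hoxa10 was listed at 0 in both BBN963 tumours and had 347, 253, 219.6 and 198 units in the MB49 tumours (adjusted p = 2.8e-08). Hoxb13 was listed at 0 in both BBN963 tumours and had 165, 160.5, 207 and 224 units in the MB49 tumours (adjusted p = 1.3e-06). Hoxb8 had 449 and 425 units in the BBN963 tumours, against 32.3, 22.4, 36.2 and 30.3 in the MB49 tumours. Hoxb8 rose by 3.83 log2 units (SE 0.43, adjusted p = 4.2e-05). The cultures had the same order for Hoxb8 (375 and 45.3 units), Hoxa10 (0 and 142) and Hoxb13 (0 and 40.5) in BBN963 and MB49 cells. Hoxa2 was listed at 0 in BBN963 tumours (adjusted p = 0.023; 0.092 and 0.082 without BBN963 tumour 1 and 2). Xist, the RNA of the inactive X chromosome, had 4081 and 7072 units in the BBN963 tumours and was listed at 0 in all 4 MB49 tumours (adjusted p = 1.4e-07). Its culture values were 15289.5 and 0.96 units in BBN963 and MB49 cells. The Y-linked genes ran the other way. Ddx3y was listed at 0 in both BBN963 tumours and had 217, 1203, 415 and 452 units in the MB49 tumours (adjusted p = 1.8e-06). Eif2s3y, Kdm5d and Uty were likewise listed at 0 in both BBN963 tumours and in the BBN963 culture (adjusted p = 8.8e-06, 7.7e-06 and 0.0018). Xist and these 4 genes summed to 4001 units in the MB49 culture, with 0 of them at 0 and Xist at 0.96. The same sum was 487 to 2664 units in the MB49 tumours. Of the MB49 tumours, tumour 2 held the most of all 4 Y-linked genes, and host sex is not given.

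Some of the largest falls belonged to no list. Msln, mesothelin, a surface protein of mesothelium and some carcinomas, was listed at 0 in both BBN963 tumours and had 4154, 6259, 4272 and 4443 units in the MB49 tumours (adjusted p = 2.2e-07). The BBN963 culture held 1064 units and the MB49 culture 1710.4. Faim2, a death receptor inhibitor gene, was listed at 0 in both BBN963 tumours and had 3296, 2270.5, 3327 and 2911 units in the MB49 tumours (adjusted p = 9.2e-06). Rgs17, a G protein regulator gene, was listed at 0 in both BBN963 tumours and had 2119.7, 2146, 2570.4 and 2404 units in the MB49 tumours (adjusted p = 1.3e-07). Ntrk3, a neurotrophin receptor gene, and Slc5a7, a choline transporter gene, varied among MB49 tumours, at 711, 2948, 1609.8 and 1362 units and at 390.2, 2927, 1232 and 679, and were listed at 0 in both BBN963 tumours (adjusted p = 5.1e-07 and 9.0e-07). Nxf3, Adamtsl3 and Gchfr were at 965 to 1035, 784 to 1285 and 571 to 1026 units in MB49 tumours and listed at 0 in both BBN963 tumours (adjusted p = 2.1e-07, 9.9e-07 and 2.8e-05). Nxf3, Adamtsl3 and Gchfr were also at under 10 units in the BBN963 culture.

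The cultures show which tumour differences were also present in the lines without a host, as single libraries and with no test. The plot of list genes in tumours and in cultures sets the differences side by side. Of the 698 genes higher in BBN963 tumours by 4 log2 units or more, 589 were over 1 log2 unit higher in the BBN963 culture. A further 103 differed by 1 log2 unit or less in either direction, and 6 were lower by more than 1. Of the 742 lower by as much, 370 were over 1 log2 unit lower in the BBN963 culture. Another 264 differed by 1 log2 unit or less in either direction, and 108 were higher by more than 1. Genes under 10 units in both cultures numbered 179 of the 698 and 188 of the 742. Both sets include genes listed at 0 in every tumour of 1 line, whose size of difference depends on the pseudocount. By list, the culture medians were 10.26 for basal genes, 9.98 for desmosome genes and 5.52 for squamous genes. They were 0.62 for simple keratins (6.04 in the tumours) and of the opposite sign to the tumours for proliferation (1.53 against -0.61) and class I (1.01 against -0.68). For interferon response and for chemokine and cytokine genes they were 2.52 and 2.70, beside tumour medians of -0.17 and -0.42. The sign of these 2 tumour medians is not settled. Without BBN963 tumour 1 they were 0.063 and -0.026. The macrophage list had 12 of its 21 genes listed at 0 in the BBN963 culture and 13 in the MB49 culture.

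**Figure D5:**
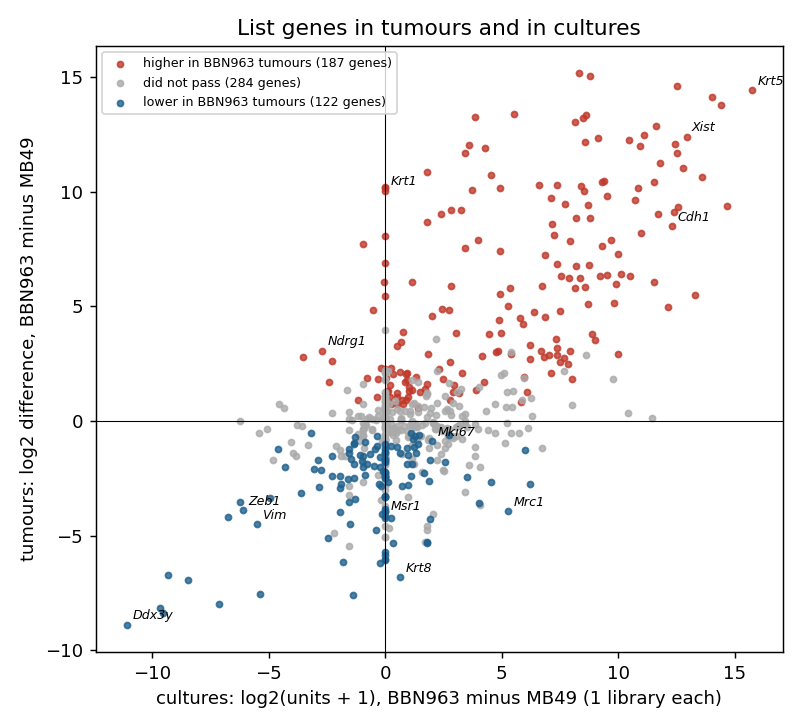
Difference of each tested list gene in the tumours (vertical axis, log2 units, BBN963 minus MB49) against that in the single cultures (horizontal axis, log2(units + 1), BBN963 minus MB49), coloured by its call in the tumours. Krt5 and Cdh1 lie high on both axes and Zeb1 low on both, Krt1 and Msr1 lie near 0 on the culture axis, and Ndrg1, Mki67 and Mrc1 have opposite signs on the 2 axes.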

How the data were processed

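RNA of the tumours and cultures was extracted with the RNeasy kit and sequenced after TruSeq Stranded mRNA preparation, per the labels' protocols. Per the submitters' processing notes RSEM, SAMtools, Picard 1.64 and the build mm9 were used, in roles not stated. The deposited table holds signal values for 21705 genes in 36 libraries, scaled by the authors to a 75th percentile, over values above 0, of 1000 in each library, as the values show (998.9 to 1000 in these tumours). Divided by each library's smallest step, 93.5 to 96.0% of the values above 0 in the 6 tumours were whole within 0.02 and were read as reads.

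Values were taken as log2(value + 1). A limma 3.58.1 fit with a variance trend (R 4.3.3) covered the 10 line-derived tumours as 3 groups, for 14604 genes with at least 10 units in at least 2 of them; 7101 were not tested. The threshold was an adjusted p (Benjamini-Hochberg, over all genes tested) of 0.05, and every adjusted p in the text is from this fit unless an alternative is named. The main test is limma because the values are not counts; edgeR 4.0.16 on the recovered reads is an alternative. The p-values measure spread between tumours of 1 line.

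The comparison, the 39 gene lists (633 of 638 entries found) and the naming rule were chosen with earlier results of these data known, so list counts are descriptions with no test. Named are the first 2 genes of each list, the next 3 at most by adjusted p, the 8 largest rises and falls with a mean of at least 100 units, up to 6 genes per direction listed at 0 in every tumour of 1 line, and Trp53. A few genes that this rule names are not reported here; they stay in the fit and the list counts. List medians were also taken with genes at 0 in 1 line set to 3 reads, which is below the most frequent low value of both BBN963 tumours and of MB49 tumour 1. A log2 difference is given only where a tumour of each line reached 5 units; it understates changes of low genes. Promoters came from RefSeq (GRCm38.p6) and were not placed on mm9. Scripts were tested on simulated data. Python 3.11.15, numpy 2.4.6, pandas 2.3.3 and matplotlib 3.10.9 were used.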

Additional observations from a re-analysis of the deposited data

Results flagged for a closer look

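Among the 4 MB49 tumours, 1 tumour stood far from the other 3 in 20 of 165 named genes with any spread (Dixon's criterion, which chance meets in about 1 in 20 groups). In 9 of the 20, 3 tumours were at 0 and the other under 10 units, which meets the criterion by construction, so the count is not set against chance: Dsp (1.17 in MB49 tumour 4), Krt17 (1.04 in tumour 1), Gpx2 (1.04 in tumour 1), Lgals7 (1.12 in tumour 2), Krt20 (3.37 in tumour 2), and Epcam (2.13), Crb3 (1.07), Cdkn2a (6.40) and Fzd10 (2.13) in tumour 3, with the other tumours listed at 0.

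MB49 tumour 1 was apart in Acta2 (3164 units, others 425 to 549), Tagln (1869, others 259 to 334) and Fscn1 (1077, others 410.4 to 469.7). MB49 tumour 2 was apart in Msln (6259, others 4154 to 4443), Ndrg1 (7275, others 3193 to 3598) and Gchfr (571, others 949.9 to 1026). MB49 tumour 3 was apart in Acta1 (1078, others 3915 to 5045) and Cd68 (839, others 1115 to 1171). MB49 tumour 4 was apart in Csf3r (501, others 264 to 291), Jup (671, others 888 to 918) and Lpl (524.5, others 1134 to 1324).

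Only named genes that were called without overlap and reached 10 units in a culture were searched. In 13 of them the single cultures differed by more than 1 log2 unit against the direction of the tumours. The difference between tumours and cultures was not tested. The culture difference, BBN963 minus MB49, was -3.56 for Tagln, -2.73 for Ndrg1 and -1.16 for Cdkn1a, which were higher in BBN963 tumours. It was 6.21 for Lpl, 5.98 for H2-DMa, 5.28 for Mrc1, 2.00 for Mki67, 1.88 for Fst, 1.42 for Egfr, 1.31 for Cd276, 1.23 for Bub1, 1.17 for Tapbp and 1.12 for Top2a, which were lower in BBN963 tumours. Lpl, H2-DMa and Mrc1 were at 73.0, 62.0 and 75.4 units in the BBN963 culture and at most 0.964 in the MB49 culture.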

How the results depend on the processing

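Both genome-wide counts stayed within 1.5 times the reported ones under every alternative but 1: a fit over all 36 libraries called 1515 genes higher and 2257 lower, and the cause was not tested. Leaving out single tumours gave 1772 to 2307 higher and 2750 to 3933 lower; leaving out tumour 1 of both lines, an alternative chosen after seeing the data, gave 2008 and 2951. The share of calls that were higher was 37.7% as reported, 46.2% with quantile normalization, 47.6% with median-of-ratios scaling and 50.8% in edgeR, which called 2914 higher and 2826 lower. With the tumour number as a replicate block, 1900 genes were higher and 3019 lower. Of 155 named calls, 117 held over all 36 libraries, 142 in edgeR, 148 with median-of-ratios scaling and 135 to 149 without 1 tumour, all in the reported direction. Signs turned only in genes that had not passed: Cd8a was 0.032 with quantile normalization; Pecam1 0.031, B2m 0.039 and Tap1 0.11 with median-of-ratios scaling; Tap1 0.020 with array weights; Pecam1 0.022, Hbb-b1 -0.0571 and Tap1 0.10 in edgeR; Cd8a 0.10, Hbb-b1 -0.0272, B2m 0.063, Tap1 0.11 and Cxcl9 0.0046 with the replicate block; and Acta1 0.12, Hbb-b1 -0.64 and Tgfb2 -0.15 without tumour 1 of both lines. Over the fits without 1 tumour the ranges were Acta1 -6.65 to -6.8e-05, Cd3e -0.77 to 0.069, Cd8a -0.65 to 0.16, Tap1 -0.26 to 0.10, Cxcl9 -1.32 to 0.13, Hbb-b1 -0.41 to 1.98, B2m -0.26 to 0.072, Tgfb1 -0.034 to 0.086 and Tgfb2 -0.35 to 0.51. The replicate numbers are not shown to pair tumours: deviations of same-numbered BBN963 and MB49 tumours correlated at 0.0439 and 0.0659 over the 2 numbers that these lines share. Limits: 2 BBN963 tumours carry every contrast, and without either the other is assumed to vary like the other groups. Each line is 1 line, so line, host and handling cannot be told apart. A 0 in BBN963 tumour 1 may mean up to 19 reads, and a log2 difference of a gene near 0 depends on the pseudocount.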
